A study of Mus musculus with 17 samples.

Results

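The Id proteins and the E proteins of mouse hematopoietic stem and progenitor cells were read through every non-control array probe named Id1, Id2, Id3, Id4, Tcfe2a, Tcf3, Tcf4 or Tcf12. This rule gave 17 of 41174 probes and 8 of 28090 gene names. The E2A gene is on the array under the older name Tcfe2a. The 2 probes named Tcf3 carry the accession that RefSeq assigns to Tcf7l1, an HMG-box factor of the Wnt pathway on chromosome 6, so they are given apart and stay out of the counts. The family was therefore measured by 15 probes, 7 of Id genes and 8 of E protein genes.

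E proteins are basic helix-loop-helix transcription factors that bind DNA at E-box motifs, as dimers with each other or with tissue-restricted partners such as Tal1. Id proteins have the helix-loop-helix part and lack the basic part, so an Id and E protein dimer does not bind DNA, and Id genes are known as inhibitors of E protein activity. In the bone marrow, E proteins are best known for lymphoid commitment, Id2 for innate lymphoid and dendritic cells, and Id1 as a target of BMP and cytokine signals.

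Each gene was seen only through 60-base probes, and 3 of them are printed because they show which part of a transcript was read. The Id2 and Id3 probes cover more genome than their own length, so they lie across exon junctions, and the second Tcfe2a probe was the only E protein probe called lower in HSC subsets. Capitals mark a stop codon triplet at the end of the Id2 probe.
Id2 probe 2: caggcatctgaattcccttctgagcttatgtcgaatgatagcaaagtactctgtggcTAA
Id3: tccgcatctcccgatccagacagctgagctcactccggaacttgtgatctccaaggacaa
Tcfe2a probe 2: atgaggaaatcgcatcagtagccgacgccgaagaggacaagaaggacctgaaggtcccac
In mm9 these lie at chr12:25780183-25780530 on the minus strand, chr4:135700075-135700249 on the plus strand and chr10:79875963-79876022 on the minus strand. The 2 Id1 probes share 50 of 60 bases and are not independent readings.

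The arrays held mRNA of 6 bone marrow populations sorted from young adult female C57Bl/6 mice, all lineage-negative and c-kit-positive. LT-HSC (long-term HSC) were sorted as Sca1+CD34-FLT3-, ST-HSC (short-term HSC) as Sca1+CD34+FLT3- and MPP (multipotent progenitors) as Sca1+CD34+FLT3+, and together they are called HSC subsets here. Among the Sca1- cells, CMP (common myeloid progenitors) had intermediate CD34 and Fc gamma receptor, GMP (granulocyte-macrophage progenitors) had both, and MEP (megakaryocyte-erythroid progenitors) had neither. The sources name no transgene or treatment. There were 2 arrays of LT-HSC, 1 of them a pool of replicates 2 and 3, and 3 of each other population, each from a pool of mice, and p-values measure the spread between these pools. HSC subsets and myeloid populations were sorted separately.

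All levels are quantile-normalized log2 intensities, which cannot be compared between probes. Per array, 41.4% to 70.1% of spots passed the software's call of well above background. The LT-HSC array without a number was the dimmest, since its 75th percentile was 53.1 intensity units and that of the others 243 to 534. There were 3 scanning runs, of which run 1 held the numbered myeloid arrays, run 3 LT-HSC and the numbered ST-HSC and MPP arrays, and run 2 the unnumbered arrays of all populations except LT-HSC. The HSC markers Procr, Hlf, Fgd5 and Slamf1 averaged 7.89 to 9.83 on the HSC subset arrays and 3.93 to 6.38 on the myeloid arrays. Slamf1 of that list went another way, at 1.97 and not above background in MPP and at 5.72 in CMP. Of the genes of the sort markers, Fcgr3 was highest in GMP (13.61) and Flt3 in MPP (9.93). Other mRNA levels went against the surface gates. Cd34 averaged 14.96 in LT-HSC and 14.29 in GMP, Flt3 8.24 in LT-HSC, and Ly6a (Sca1) 9.71 in GMP and 8.88 in ST-HSC. Both LT-HSC arrays also carried transcripts that define other cells. The B cell gene Ms4a1 averaged 9.49 there, and the B cell, T cell and NK cell lists averaged 7.49 to 7.74, 7.05 to 7.08 and 7.80 to 7.92. The mature neutrophil list averaged 14.46 to 15.35, the list of MEP genes (Gata1, Klf1, Epor and Car1) 10.53 to 11.56 against 5.70 to 9.42 in ST-HSC and MPP, and the mature erythroid list 7.96 to 8.32. ST-HSC arrays carried such transcripts too, with the mature neutrophil list at 13.56 to 15.12, the mature erythroid list at 6.62 to 7.91 and the mast cell and basophil list at 8.51 to 9.56, against 5.90 to 6.53 for the last in LT-HSC. The part of these in the levels was not tested. The comparison of HSC subsets with myeloid populations is also given without LT-HSC, where 12 family probes again differed by the F-test. In sorted pools like these, fewer cells of a type and less RNA per cell cannot be told apart.

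Of the 15 family probes, 12 differed over the 6 populations by the F-test of limma at an adjusted p under 0.05, against a background of 40.6% of all probes. The 3 that did not pass were the second probe of Id4 and probe 3 of Tcf4 and of Tcf12. All 7 genes had at least 1 probe that passed. The plot of levels by population shows that no pair of genes shared a full order: Id1 was highest in ST-HSC, Id2 and Tcf4 in MPP, Id3 in CMP and Tcfe2a in MEP.

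**Figure D1:**
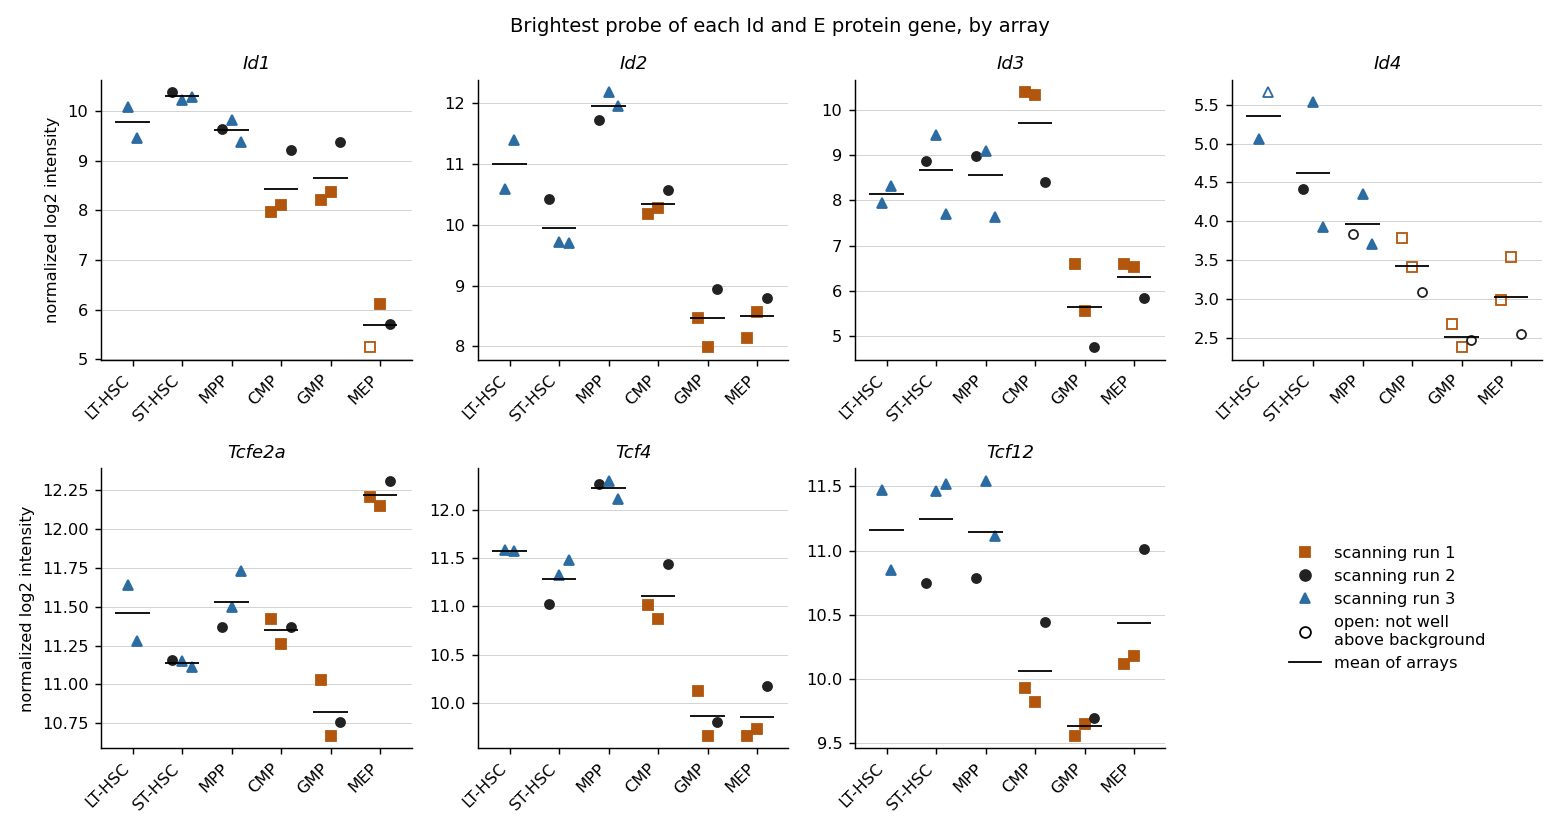
Normalized log2 intensity (y axis) of the brightest probe of each gene in each of the 6 populations (x axis), with 1 point per array, its shape giving the scanning run and open points not well above background, and a line at the population mean. The 3 MEP arrays lie below all others for Id1 (5.25 to 6.12) and above all others for Tcfe2a (12.15 to 12.31).

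Id1, whose product blocks E protein dimers and is induced by BMP signals, was high in HSC subsets and near the detection limit in MEP. By its first probe (chr2:152563046-152563105, plus strand), Id1 stood at 10.09 and 9.46 in LT-HSC, at 10.23, 10.29 and 10.38 in ST-HSC and at 9.83, 9.39 and 9.64 in MPP. In the myeloid populations it stood at 7.97, 8.11 and 9.22 in CMP, at 8.21, 8.38 and 9.39 in GMP, and at 5.25, 6.12 and 5.71 in MEP, where the lowest array was not well above background. The last value of CMP and of GMP is the unnumbered array of run 2, which was more than 1 log2 unit above both numbered arrays. The lowest HSC subset array and the highest myeloid array were both at 9.39 after rounding, and by the second probe the HSC subset arrays (8.87 to 10.26) overlapped those of CMP and GMP. In the order of population means, the step from CMP down to MEP, 2.74 ± 0.37 (SE) on the log2 scale, passed the test (adjusted p = 0.00013, limma), and the 4 steps among ST-HSC, LT-HSC, MPP, GMP and CMP did not.

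Id2, an inhibitor needed for NK, innate lymphoid and some dendritic cells, peaked in MPP. Its first probe (chr12:25778904-25778963, minus strand) gave 10.59 and 11.40 in LT-HSC, 9.71, 9.70 and 10.42 in ST-HSC and 12.18, 11.95 and 11.72 in MPP. It gave 10.17, 10.27 and 10.58 in CMP, 8.46, 7.99 and 8.94 in GMP, and 8.14, 8.57 and 8.80 in MEP. By this probe every MPP array lay above every other array, and GMP and MEP overlapped each other below the rest. By the second probe, printed above, MPP stood at 10.66, 10.70 and 9.81, and the last of these lay below 1 LT-HSC array (10.49) and below CMP replicates 1 and 2 (9.89 and 9.97). MPP exceeded ST-HSC by 2.01 ± 0.30 (SE), a 4.02-fold difference (adjusted p = 0.00244, limma). In the order of means, the step from ST-HSC down to MEP of 1.44 ± 0.30 passed (adjusted p = 0.0024), where 12.6% of all probes were called higher in ST-HSC. By the second probe that step was 0.70 ± 0.36 and did not pass (adjusted p = 0.167, limma). The steps from MPP to LT-HSC (0.95), LT-HSC to CMP (0.66), CMP to ST-HSC (0.40) and MEP to GMP (0.04) did not pass.

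Id3, an inhibitor that acts with Id2 in lymphoid cells, was highest in numbered CMP arrays and lowest in GMP. Its only probe, printed above, gave 7.95 and 8.32 in LT-HSC, 9.45, 7.70 and 8.88 in ST-HSC and 9.10, 7.63 and 8.98 in MPP. It gave 10.39, 10.34 and 8.41 in CMP, 6.59, 5.55 and 4.76 in GMP, and 6.59, 6.52 and 5.83 in MEP. CMP replicates 1 and 2 were above every other array, while the unnumbered CMP array fell among the HSC subsets. The SD within ST-HSC, MPP, CMP and GMP was 0.82 to 1.13, and none of the 5 steps between neighbours in the order of means passed the test.

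Id4, best known from the nervous system and mammary gland, was at the detection limit. Its first probe (chr13:48358668-48358727, plus strand) gave 5.06 and 5.66 in LT-HSC, 5.54, 3.92 and 4.41 in ST-HSC and 4.35, 3.70 and 3.84 in MPP. Its signal passed background on 6 of 17 arrays, all of them HSC subset arrays, and on 0 of 9 myeloid arrays, where it lay between 2.38 and 3.78. The value of 5.66 in LT-HSC, the highest, and that of 3.84 in MPP were not well above background. The second probe lay between 1.70 and 2.94 and was above background on 1 array, ST-HSC replicate 2. None of the 5 steps in the order of means passed.

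Tcfe2a, the gene of the E2A proteins E12 and E47, was highest in MEP. Its first probe (chr10:79872639-79872698, minus strand) gave 11.64 and 11.28 in LT-HSC, 11.15, 11.11 and 11.16 in ST-HSC and 11.50, 11.73 and 11.37 in MPP. It gave 11.42, 11.26 and 11.37 in CMP, 11.03, 10.67 and 10.76 in GMP, and 12.21, 12.15 and 12.31 in MEP. All MEP arrays lay above, and all GMP arrays below, every other array. The step from MEP down to MPP of 0.69 ± 0.14 (SE) passed (adjusted p = 0.00229), where 18.2% of all probes were called lower in MPP than in MEP, and no other step did. The second probe, printed above, gave 10.06, 9.84 and 9.21 in MEP and 7.75 to 9.0 elsewhere. Its CMP arrays, at 9.0, 8.89 and 8.17, were above GMP, at 8.25, 8.47 and 7.84, on each slide, a difference of 0.50 that did not pass the test but did with run as a block (0.50 ± 0.13, adjusted p = 0.0429, limma).

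Tcf4, which encodes the E protein E2-2 and is known for plasmacytoid dendritic cells, had nearly the order of Id2. Its first probe gave 11.59 and 11.57 in LT-HSC, 11.33, 11.48 and 11.03 in ST-HSC and 12.30, 12.11 and 12.27 in MPP. It gave 11.01, 10.87 and 11.44 in CMP, 10.12, 9.66 and 9.80 in GMP, and 9.66, 9.73 and 10.17 in MEP. All MPP arrays were above, and all GMP and MEP arrays below, every other array. The step from CMP to GMP of 1.24 ± 0.20 passed (adjusted p = 0.00219), and GMP and MEP had the same mean of 9.86. The second probe correlated with the first at r = 0.80 over 17 arrays. Probe 3, above background on 7 of 17 arrays, did not follow them (r = -0.16 with the first), so the Tcf4 results rest on its first and second probes.

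Tcf12, the gene of the E protein HEB, was read by 3 probes. The first (chr9:71692310-71692369, minus strand) gave 11.47 and 10.85 in LT-HSC, 11.46, 11.52 and 10.75 in ST-HSC and 11.54, 11.11 and 10.79 in MPP. It gave 9.93, 9.82 and 10.44 in CMP, 9.56, 9.65 and 9.70 in GMP, and 10.12, 10.18 and 11.01 in MEP. The unnumbered ST-HSC and MPP arrays were the lowest of their groups, and the unnumbered CMP and MEP arrays the highest of theirs. None of the 5 steps in the order of means passed the test. The second probe, at 7.02 to 8.54, gave 8.28 to 8.54 in MEP, within the range of the HSC subsets. MEP was not called against LT-HSC, ST-HSC or MPP by any of the 3 probes (adjusted p from 0.0589, limma). Probe 3 lay at 6.45 to 8.10.

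Tcf7l1, which represses Wnt targets, had a first probe (chr6:72577222-72577281, minus strand) at 6.32 to 7.98 in HSC subsets. It gave 4.24, 4.09 and 5.68 in CMP, 5.78, 5.21 and 6.62 in GMP, and 1.68, 1.67 and 3.46 in MEP, none of the last well above background. Both probes were called higher in HSC subsets, but the first was well above background on 5 and the second on 1 of 9 myeloid arrays, so no size is given. MPP exceeded MEP at least 8.28-fold by the first probe (adjusted p = 6.1e-06, limma), and MPP exceeded CMP at least 3.46-fold by the second (adjusted p = 0.00213). A gene symbol alone would have assigned these differences to E2A, whose own probes were not higher in HSC subsets.

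The first comparison asked which members differed between the HSC subsets and the myeloid populations. Id1, Id2, Id3, Id4, Tcf4 and Tcf12 had at least 1 probe higher in HSC subsets, and 1 probe of Tcfe2a was lower. In all, 10 of 15 probes were called (background 41.3%), 9 of them higher (background 18.2%) and 1 lower (background 23.1%). The median difference was 1.14 on the log2 scale, against -0.02 over all probes, but 0.46 with run as a block, 0.48 with normexp background correction and 0.61 with the authors' table. With both LT-HSC arrays left out the counts were again 9 and 1, with a median of 1.05, and the differences included 2.37 for Id1, 1.84 for Id2, 1.40 for Id3, 1.48 for Tcf4 and 1.15 for Tcf12 by their first probes. When each array was scaled by its 75th percentile, the median over all probes moved to 0.31 and the share of calls that were higher in HSC subsets went from 44.0% to 64.1%, while 10 family probes were higher and 1 lower.

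Among the inhibitors, Id1 was higher in HSC subsets by 2.30 ± 0.22 (SE), a 4.94-fold difference (adjusted p = 4.56e-06, limma, 8 arrays against 9), and its second probe gave 2.20 ± 0.23. Id2 was higher by 1.86 ± 0.18 by the first probe (3.63-fold, adjusted p = 4.74e-06) and by 1.18 ± 0.22 by the second. Id3 was higher by 1.24 ± 0.38 (adjusted p = 0.0187), although the CMP mean of 9.71 lay above the means of LT-HSC, ST-HSC and MPP (8.14, 8.67 and 8.57). MPP was below CMP by 1.14 ± 0.63, the opposite direction, which did not pass (adjusted p = 0.261, limma). Id4 was called higher by its first probe (adjusted p = 6.74e-05, limma). Only 6 of the 8 HSC subset arrays and no myeloid array had it above background, so no size is given. For Id1, ST-HSC exceeded MEP by 4.60 ± 0.37 (24.3-fold) and GMP by 1.64 ± 0.37 (3.12-fold), while LT-HSC and MPP exceeded GMP by 1.12 ± 0.41 and 0.96 ± 0.37, which did not pass (adjusted p = 0.0577 and 0.0779, limma).

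Among the E proteins, Tcf4 was higher in HSC subsets by 1.42 ± 0.12 by its first probe (2.68-fold, adjusted p = 1.46e-06, limma) and by 0.60 ± 0.17 by its second. Tcf12 was higher by 1.14 ± 0.18 by its first probe (adjusted p = 0.000218), and its other 2 probes were not called. Tcfe2a was lower by 0.92 ± 0.16 by its second probe (adjusted p = 0.000386), and its first probe was not called.

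Only run 2 held both kinds of population, so the same comparison was made with run as a block and within the slides of run 2. With run as a block, 8 of the 15 probes were called, 7 higher and 1 lower, where the share of all probes called was 14.5%, 6.86% higher and 7.64% lower. Tcf12 by its first probe went to 0.31 ± 0.23 (adjusted p = 0.44) and Tcf4 by its second to 0.46 ± 0.34 (adjusted p = 0.437), so both calls were lost. Id3 went up to 2.48 ± 0.57, Id1 was at 1.85 ± 0.34, and Tcfe2a by its second probe was at -0.52 ± 0.16 (adjusted p = 0.0497). On slide 3, MPP minus the mean of CMP and GMP was 0.34 for Id1, 1.96 for Id2, 2.39 for Id3, 1.65 for Tcf4 and 0.72 for Tcf12. On slide 4, ST-HSC minus MEP was 4.66 for Id1, 1.63 for Id2, 3.05 for Id3, 0.85 for Tcf4 and -0.26 for Tcf12. Id1, Id2, Id3 and Tcf4 thus had the same direction on both slides by their first probes, and Tcf12 did not. The second Tcf4 probe gave 1.05 on slide 3 and -0.44 on slide 4, so its direction turned. Tcfe2a gave 0.30 and -1.15 by its first probe and 0.02 and -1.45 by its second, so it was lower on slide 4 and not on slide 3. No myeloid array had Id4 above background, so it is given no value within slides. No LT-HSC array was in run 2, so its level is set against the myeloid populations only through the block.

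**Figure D2:**
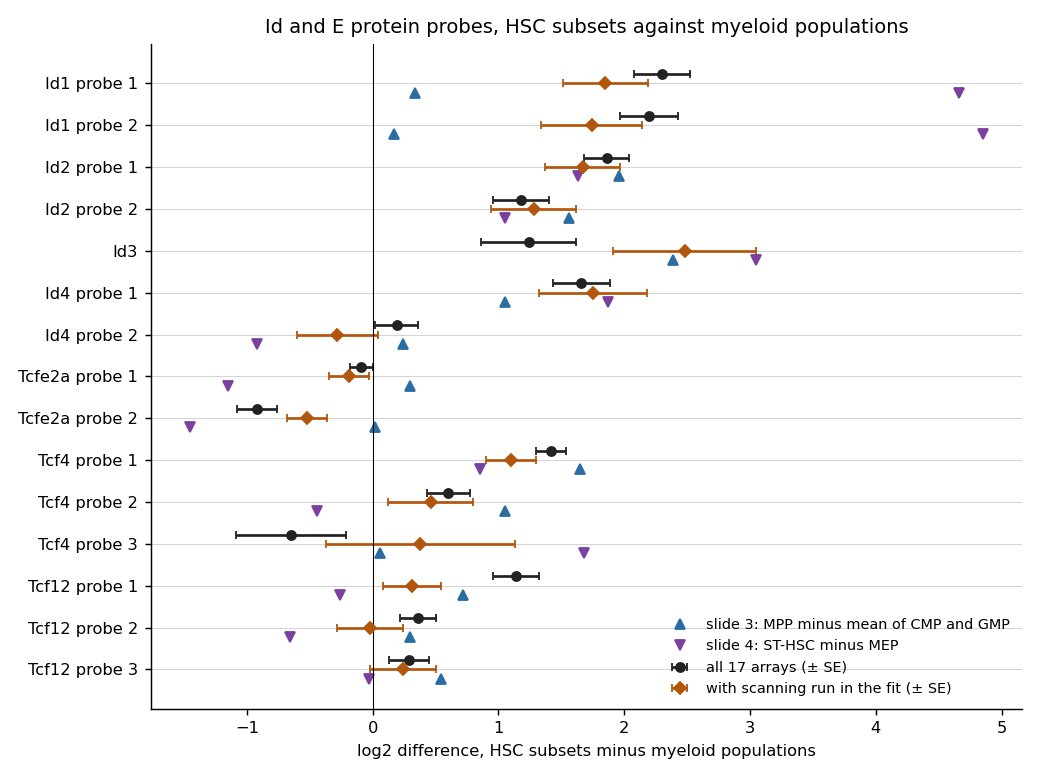
Log2 difference (x axis) of each Id and E protein probe (y axis) between HSC subsets and myeloid populations, from all 17 arrays with its SE. The values with scanning run as a block and within the slides of run 2 stand beside it. The points do not mark which probes were called. The values of Id1, Id2, Id3 and the first probe of Tcf4 stay above 0 in all of them, while the first Tcf12 value moves from 1.14 to 0.31 with the run block.

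GMP and MEP are the branches to granulocytes and macrophages and to red cells and platelets, and runs 1 and 2 each held both. Id1 was higher in GMP, while Tcfe2a and Tcf12 were higher in MEP. Of the 15 probes, 5 were called (background 17.4%), 2 higher in GMP (background 9.56%) and 3 lower (background 7.81%), with a median of -0.51 against -0.07 over all probes. That median was -0.13 with normexp, -0.17 with the authors' table and -0.13 with the replicate block. Id1 was higher in GMP by 2.96 ± 0.37 (SE, 7.80-fold, adjusted p = 5.29e-05, limma, 3 arrays against 3), and the differences were 2.95 on slide 1, 2.27 on slide 2 and 3.67 in run 2. Tcfe2a was lower in GMP by both probes, at -1.40 ± 0.14 (2.65-fold, adjusted p = 1.1e-05) and -1.52 ± 0.26, and its first probe gave -1.19, -1.48 and -1.55 in the same order. Tcf12 by its second probe was at -1.11 ± 0.24 (adjusted p = 0.00423). With run as a block Tcf12 probes 1 and 3, at -0.80 ± 0.19 and -0.75 ± 0.22, also passed (adjusted p = 0.00944 and 0.0257), where 12.9% of all probes were called lower in GMP. Id2 (-0.04 ± 0.30) and Tcf4 (0.00 ± 0.20) did not pass the test, nor did Id3 (-0.68 ± 0.63, 95% interval -2.04 to 0.69).

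Id1 and Tcfe2a moved beside markers of other cells. The endothelial list (Cdh5, Kdr, Plvap, Emcn and Pecam1), in cells that can use Id1, averaged 4.53 to 4.92 in MEP, 5.06 to 5.44 in GMP and 6.20 to 6.76 elsewhere, and its defining marker Cdh5 was above background on 1 of 17 arrays. Plvap of that list went the other way, at 6.60 in GMP and 9.38 in MEP. The mast cell and basophil list averaged 9.85 to 10.45 in GMP and 4.43 to 5.58 in MEP, and the monocyte and macrophage list 8.70 to 9.27 and 4.84 to 5.22. The mature erythroid list averaged 9.36 to 10.59 in MEP, with all 4 genes detected, against 4.53 to 5.77 in GMP. Their part in the results was not tested.

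CMP, placed upstream of both branches, had more Id2, Id3 and Tcf4 than GMP. In that comparison 5 probes were called, all higher in CMP (background 2.93%). The run block gave 7 calls, where 4.76% of all probes were called higher in CMP, since Tcfe2a also passed by both probes, at 0.53 ± 0.14 (adjusted p = 0.0349, limma) and 0.50 ± 0.13 (adjusted p = 0.0429). Id3 was higher in CMP by 4.08 ± 0.63 (SE, 16.9-fold, adjusted p = 0.00189, limma), the largest difference of the family between any 2 myeloid populations, with 3.80 on slide 1, 4.78 on slide 2 and 3.65 on slide 3. Id2 was higher by 1.88 ± 0.30 and 1.79 ± 0.36, and Tcf4 by 1.24 ± 0.20 and 1.18 ± 0.29. Without CMP replicate 1 or 2 the second probes of Id2 and Tcf4 lost their calls, which left 3, and the second Tcf4 probe also lost its call without GMP replicate 2 or the unnumbered GMP array (adjusted p up to 0.157, limma).

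Against MEP, CMP had 9 probes called, 6 higher (background 9.43%) and 3 lower (background 7.24%). Id1 was higher in CMP by 2.74 ± 0.37 (6.67-fold), Id2 by 1.83 ± 0.30 (3.57-fold) and Id3 by 3.40 ± 0.63 (10.6-fold, adjusted p = 0.00179, limma). Tcf4 was higher by 1.25 ± 0.20 (2.38-fold) by its first probe only. Its second probe gave 0.65 and was not called, nor was it with run as a block (0.65 ± 0.29, adjusted p = 0.134, limma). That probe gave 1.30 on slide 1 and 1.01 on slide 2, but -0.37 in run 2. Tcfe2a was lower in CMP by its 2 probes, at -0.87 ± 0.14 and -1.02 ± 0.26, and Tcf12 by its second, at -0.82 ± 0.24. Given the run block, Tcf12 was called lower by its second probe (adjusted p = 0.0182, limma) and by probe 3 (-0.72 ± 0.22, adjusted p = 0.0312), where 13.2% of all probes were called lower in CMP. Without the block, the call of the second Tcf12 probe was lost when any 1 of the 6 CMP and MEP arrays was left out, with an adjusted p of up to 0.0975 by limma, and that of the second Tcfe2a probe without the unnumbered CMP array or MEP replicate 1 or 2, with one of up to 0.0724.

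The dendritic list (Siglech, Bst2, Itgax, Xcr1 and Cd209a), of cells that use Id2 and Tcf4, averaged 7.23 to 7.54 in CMP and 6.92 to 7.06 in MPP, against 5.71 to 6.09 in GMP and 5.76 to 6.68 in MEP. Of its genes, Itgax averaged 9.92 and 9.10 in MPP and CMP against 6.35 and 6.63 in GMP and MEP, and Bst2 13.22 and 13.05 against 12.51 and 12.17. Xcr1 averaged 6.95 in MPP and 5.81, 5.89 and 5.91 in CMP, GMP and MEP. Siglech was above background on 3 CMP arrays, 1 MEP array and no MPP or GMP array, and Cd209a on 1 CMP array and no MPP, GMP or MEP array. Other lists moved too. In CMP and GMP the mast cell and basophil list averaged 6.61 to 7.54 and 9.85 to 10.45, the NK cell list 6.24 to 6.37 and 5.46 to 5.85, the T cell list 4.73 to 4.98 and 3.93 to 4.55, and the MEP genes 10.02 to 11.28 and 7.26 to 7.66. In CMP and MEP the monocyte and macrophage list averaged 7.95 to 8.44 and 4.84 to 5.22, the mast cell and basophil list 6.61 to 7.54 and 4.43 to 5.58, and the mature erythroid list 5.69 to 6.78 and 9.36 to 10.59. The part of these lists in the CMP differences was not tested.

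**Figure D3:**
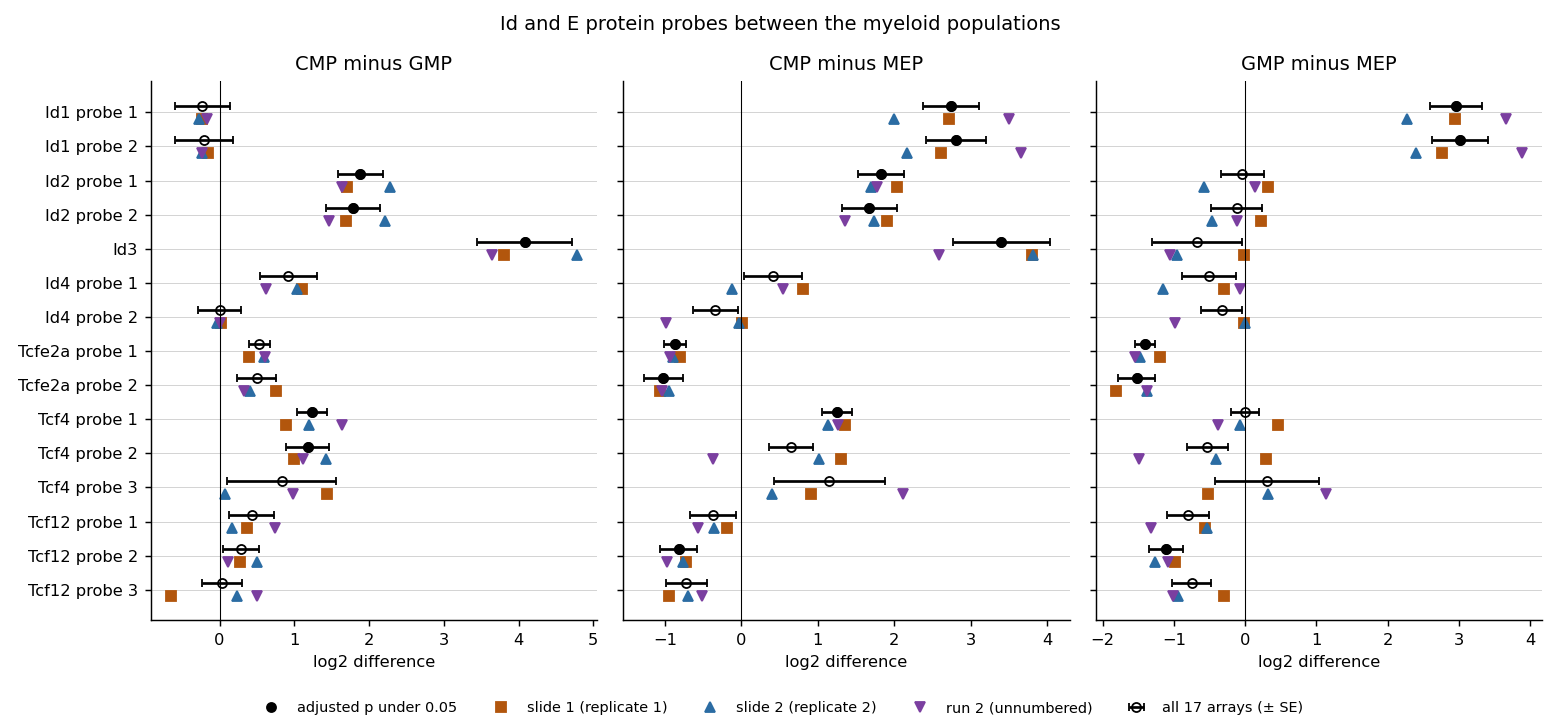
Log2 differences (x axis) of each Id and E protein probe (y axis) for CMP minus GMP, CMP minus MEP and GMP minus MEP, from all 17 arrays with the SE, filled where the adjusted p was under 0.05, and within slide 1, slide 2 and run 2 as squares and triangles. Id3 is 3.65 to 4.78 higher in CMP than in GMP in each, and Tcfe2a is lower in GMP than in MEP in each.

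Within the HSC subsets, Id2 and the first probe of Tcf4 separated MPP from ST-HSC. Of the 15 probes, 3 were called, all lower in ST-HSC (background 1.15%). Id2 was lower in ST-HSC by 2.01 ± 0.30 (SE) and 1.74 ± 0.36 and Tcf4 by its first probe by 0.95 ± 0.20 (adjusted p = 0.0226, limma). The second Tcf4 probe, at -0.73, was not called, nor was it with run as a block (-0.73 ± 0.29, adjusted p = 0.264, limma). The second Id2 probe lost its call without any 1 ST-HSC array or without MPP replicate 2 or 3 (adjusted p up to 0.107, limma). The first Tcf4 probe lost its call without ST-HSC replicate 2, the unnumbered ST-HSC array or any 1 MPP array (adjusted p up to 0.101, limma). Marker lists also differed: in ST-HSC and MPP the mast cell and basophil list averaged 8.51 to 9.56 and 5.52 to 6.45, the GMP genes 14.17 to 15.17 and 11.54 to 13.18, the MEP genes 8.76 to 9.42 and 5.70 to 7.10, and the dendritic list 6.15 to 6.76 and 6.92 to 7.06. Their part in the result was not tested. Between LT-HSC and MPP, limma called 0 of 15 probes (background 7.26%), with 3 at an unadjusted p under 0.05. These were Id2 by its first probe (-0.95 ± 0.33, adjusted p = 0.108), Id4 by its first probe (1.40 ± 0.42, adjusted p = 0.0644) and Tcf4 by its first probe (-0.64 ± 0.22, adjusted p = 0.102). With run as a block the Tcf4 difference was -0.69 ± 0.20 and passed (adjusted p = 0.0379), where 14.9% of all probes were called. Scaling by the 75th percentile turned the share of all calls that were higher in LT-HSC from 59.6% to 88.2%, with a median over all probes of 0.27.

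From MPP to CMP, the step out of the HSC subsets, Id2, Tcf4 and Tcf12 were lower in CMP, each by its first probe only. The second probes differed by 0.77 for Id2 (adjusted p = 0.177, limma), 0.32 for Tcf4 (0.518) and 0.46 for Tcf12 (0.227), and did not pass. In all 3 of 15 probes were called, all higher in MPP (background 5.39%). The differences were 1.61 ± 0.30 (SE) for Id2, 1.12 ± 0.20 for Tcf4 and 1.08 ± 0.30 for Tcf12 (adjusted p = 0.034, limma). With run as a block none of the 15 was called by limma, where 3.73% of all probes were, at 1.40 ± 0.35 for Id2 (adjusted p = 0.0548), 0.82 ± 0.23 for Tcf4 (adjusted p = 0.0798) and 0.32 ± 0.26 for Tcf12 (adjusted p = 0.711). Without the unnumbered CMP array 6 probes were called, where 6075 of 41174 probes were, against 4998 with all arrays. Tcf12 lost its call without MPP replicate 2 or 3 or CMP replicate 1 or 2. The T cell list averaged 5.76 to 6.16 in MPP and 4.73 to 4.98 in CMP, the MEP genes 5.70 to 7.10 and 10.02 to 11.28, and the mast cell and basophil list 5.52 to 6.45 and 6.61 to 7.54. In the same order, the B cell list averaged 5.53 to 5.97 and 4.60 to 5.48. The monocyte and macrophage list averaged 6.73 to 7.34 and 7.95 to 8.44, and the GMP genes 11.54 to 13.18 and 13.59 to 14.73. The part of these lists was not tested. The share of all calls that were higher in MPP was 44.4%, and 59.1% with 75th percentile scaling.

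Pairs of members were compared over the arrays as a description, since arrays of a population share its level and arrays of a run share its processing. Id2 and Tcf4 followed each other most closely, with Pearson r = 0.94 and Spearman rho = 0.93 over 17 arrays, and r = 0.92 over the 14 arrays without MEP. Id1 and Tcfe2a ran opposite to each other, with r = -0.66 and rho = -0.40. That relation rested on MEP, since r was 0.21 over the 14 other arrays. Leaving out MEP also moved Tcfe2a with Tcf4 from -0.06 to 0.85 and Tcfe2a with Id2 from -0.02 to 0.84. Id1 with Tcf12 went from 0.47 to 0.84.

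**Figure D4:**
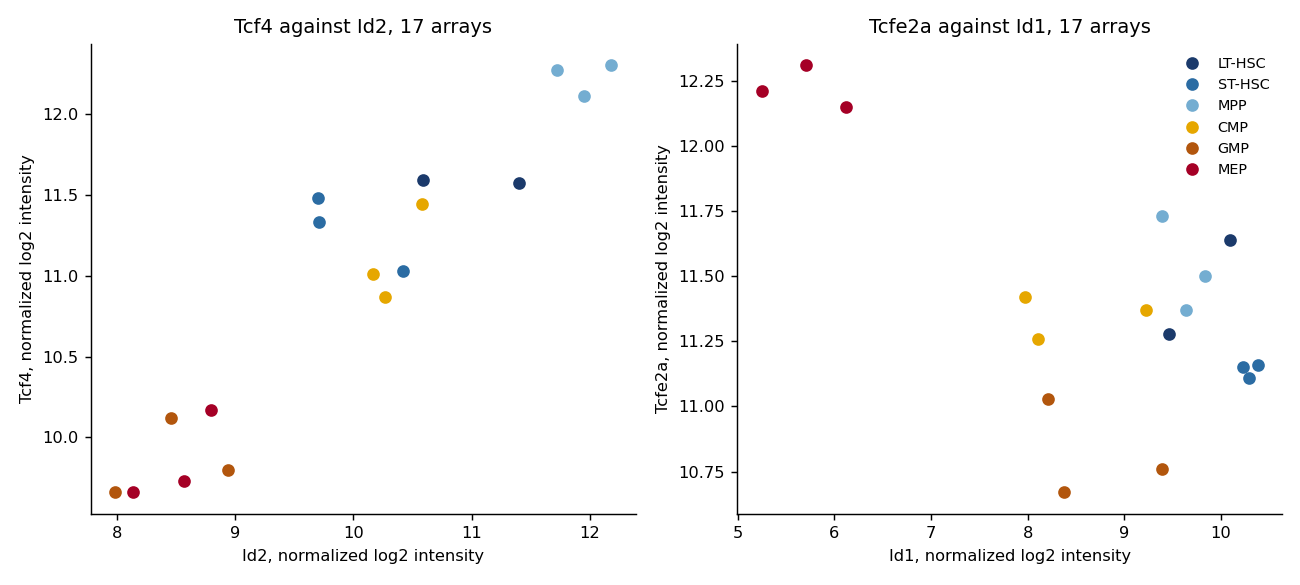
Normalized log2 intensity of Tcf4 against Id2 (left) and of Tcfe2a against Id1 (right), 1 point per array, coloured by population. Id2 and Tcf4 rise together from GMP and MEP to MPP, while the 3 MEP arrays stand apart in the right panel.

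The genes most like each member were found by Pearson r over the 17 arrays among 22605 probes. For Id1 they were Fli1, Ptpn22 and Lcp2, at r = 0.98. For Id2 they were Mx2, Cd74 and P2ry10, at r = 0.97. For Id3 they were Phlda1, Zfp212 and Rasgef1b, at 0.93, 0.92 and 0.88, the lowest of the family. Cd74 is the invariant chain of MHC class II, and Fli1 is an Ets factor of blood and endothelium. Id4 was closest to Foxo6, Slc39a4 and Lor (0.94, 0.94 and 0.93). Tcfe2a was closest to Slc38a9, Lpin1 and Zbtb46 (0.96, 0.95 and 0.95). Tcf4 was closest to Uchl1, Dbp and 1700027N10Rik, at 0.98, and Tcf12 to Ube2g1, Cnksr3 and Dhx33 (0.98, 0.97 and 0.97). Zbtb46 is a factor of dendritic and erythroid cells. For Tcf7l1 they were Ptpn22, Dnajb9 and 4930488E11Rik (0.97, 0.97 and 0.96).

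The other genes of the pathway were read through their brightest probes in 3 lists. The lists were 20 partners of E proteins such as Tal1, Lmo and Ldb genes, 23 genes known to respond to E proteins, and 22 genes of the BMP, TGF-beta and cytokine signals that act on Id genes. Between HSC subsets and myeloid populations, 11 partners were called (10 higher in HSC subsets, median 0.44), 15 responding genes (all higher, median 1.04) and 16 upstream genes (14 higher, median 1.06). Over all probes 41.3% were called, 18.2% higher and 23.1% lower, with a median of -0.02. Ebf1, among the responding genes called, was above background on 0 of 8 HSC subset arrays and 0 of 9 myeloid arrays. Without LT-HSC 12 partners, 16 responding genes and 15 upstream genes were called, where 17020 of 41174 probes were. With run as a block, 1 partner, 11 responding genes and 9 upstream genes were called, against 14.5% of all probes. Hes1, a Notch target, was called higher in HSC subsets, where it was at 6.24 to 8.47, but only 5 of the 9 myeloid arrays measured it above background, so no size is given. Socs1, an inhibitor of cytokine signals, was higher by 1.98 ± 0.10 (SE). Of the upstream genes, Smad7 and Bmpr2, an inhibitor and a receptor of the pathway, were higher by 2.19 ± 0.17 and 1.90 ± 0.18.

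Between GMP and MEP, 7 partners were called (3 higher and 4 lower in GMP, median -0.15), 11 responding genes (4 and 7, median -0.51) and 10 upstream genes (9 and 1, median 0.55). Over all probes 17.4% were called, 9.56% higher and 7.81% lower, with a median of -0.07. The partner Tal1, the erythroid dimer partner of E2A, was at 10.27 to 10.33 in GMP and 12.96 to 13.36 in MEP, a difference of -2.80 ± 0.19 (SE, adjusted p = 3.35e-07, limma). Ssbp3 and Ldb1, which join Tal1 in its complex, were lower in GMP by 2.06 ± 0.18 and 1.44 ± 0.32. The partners Lmo1, Lmo4 and Lyl1 were higher in GMP by 4.09 ± 0.27, 2.43 ± 0.21 and 1.37 ± 0.15.

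Among the responding genes, Gfi1, a repressor used by granulocytes, was higher in GMP by 3.94 ± 0.42, Cd79b by 3.37 ± 0.24 and Notch1, above background on 2 of 3 MEP arrays, by 3.03 ± 0.30. Il7r, not above background in GMP, was at least 5.39-fold higher in MEP (adjusted p = 8.45e-05, limma), Dntt was lower in GMP by 3.10 ± 0.52 and Blnk by 2.89 ± 0.44. The lymphoid genes of this list therefore went in both directions between these populations. Some genes of this list, Cd79b among them, are also in the B cell marker list, which averaged 4.75 to 5.55 in GMP and 4.57 to 4.90 in MEP, and its part was not tested. Of the upstream genes, Smad1, which carries the BMP signal, was higher in GMP by 2.61 ± 0.14. Acvr1 was also called higher in GMP, but only 1 of the 3 MEP arrays measured it above background, so no size is given. Cops5, a subunit of the COP9 signalosome, was lower in GMP by 0.51 ± 0.13, and that call was lost without GMP replicate 1 or the unnumbered GMP array (adjusted p up to 0.0537, limma). Without GMP replicate 1, the unnumbered GMP array or MEP replicate 1, the upstream count was 6, where 5919, 6175 and 6018 of 41174 probes were called.

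**Figure D5:**
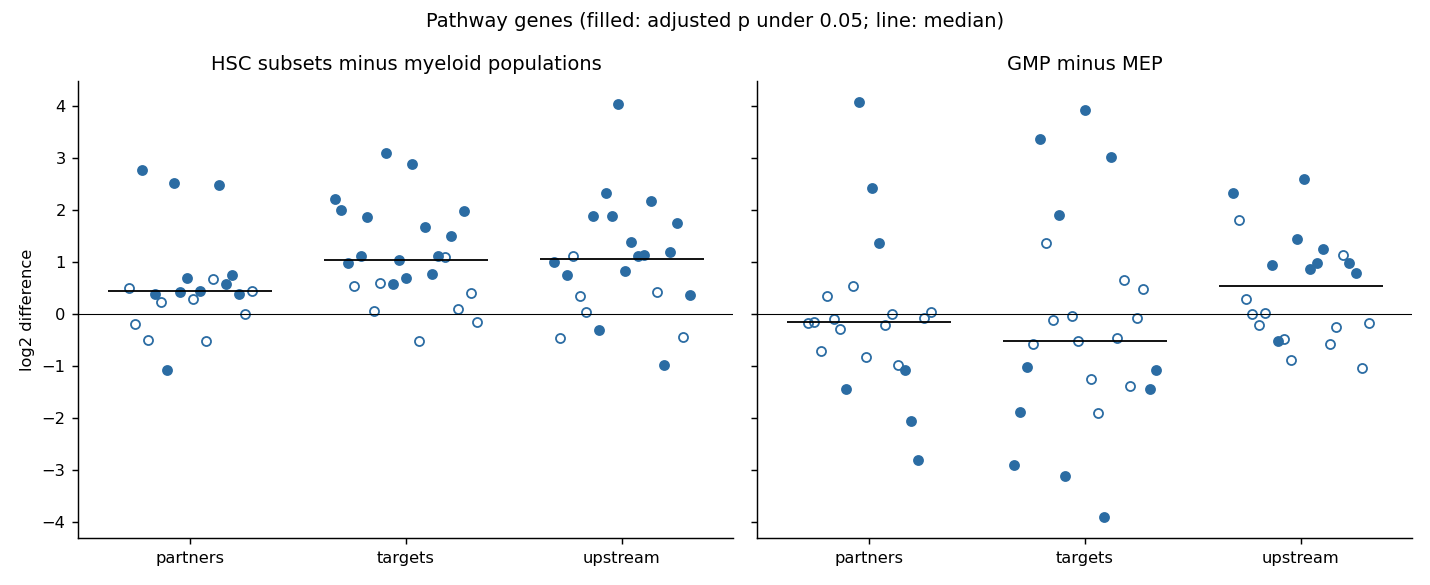
Log2 difference (y axis) of each gene of the 3 pathway lists (x axis), 1 point per gene, filled where the adjusted p was under 0.05, with a line at the list's median, for HSC subsets minus myeloid populations (left) and GMP minus MEP (right). The left medians are 0.44, 1.04 and 1.06 and the right ones -0.15, -0.51 and 0.55.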

How the data were processed

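mRNA of 6 sorted bone marrow populations was measured on 17 Agilent 1-colour arrays. The deposited scanner files give each spot's intensity, its brightness once the Agilent software had removed background and spatial trend, and arrays were not yet scaled to each other. A deposited series table holds log2 values that the authors had quantile normalized, and served as an alternative.

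Quantile normalization was applied to the log2 intensities of 45018 spots (limma 3.58.1, R 4.3.3). Next, 1639 control spots and all outlier-marked spots were dropped (161 probe values missing) and repeat spots averaged, for 41174 probes. A model with 1 mean per population was fitted by lmFit and eBayes, and each contrast was adjusted by Benjamini-Hochberg over all probes at 0.05. Where no array of a group but every array of the other had a probe well above background, only a bound on the fold is given. It is taken from the lowest signal well above background on each array. Groups came from the labels. The number of arrays limits the precision.

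The members and lists were chosen with earlier results of these data known. The genes named are all members, up to 3 genes each way per list among called genes whose arrays do not overlap, and the 3 genes most like each member among probes above background on at least 9 arrays. Some genes that meet these rules are not reported here. The alternatives were 75th percentile scaling, the authors' table, normexp correction (offset 50), a filter on dim probes (at least 3 arrays), run, slide or replicate number as a block, the brightest probe per gene name, and omission of LT-HSC or of each array in turn. For the lists, the last 2 and the replicate number, and for the order of levels the arrays left out, were added after the data were seen. The fit was tested on simulated data. Probe coordinates are those of the files in mm9, names were checked against RefSeq by accession except those of Tcf4 probe 1 and Tcf12 probe 3, which had no match and keep the array's name, and exon and UTR annotation and protein sequence were not used here.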

Additional observations from a re-analysis of the deposited data

How the results depend on the processing

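The 15 family probes gave 90 results over 6 comparisons, those above except ST-HSC against MPP, of which 32 were called. Of the 819 alternative values of those 32, 790 kept the call and direction, 29 lost the call and 0 reversed. Of the 1437 alternative values of the 58 results not called, 42 gained a call, in 15 results. For ST-HSC against MPP, the 3 calls had 77 alternative values, of which 12 lost the call and 0 reversed. LT-HSC against MPP went from 0 calls to 2 with normexp, 1 with the authors' table and 1 with run as a block. MPP against CMP went from 3 to 0 with run as a block. Of the lists in HSC subsets against myeloid populations, partners went to 1 and upstream genes to 9 with run as a block. The brightest probe per gene name gave, of 7 names, 7 by the F-test, 6 for HSC subsets against myeloid populations, 2 for GMP against MEP and 5 for CMP against MEP, since fewer features were counted. With 75th percentile scaling Tcf4 lost its call for CMP against GMP (second probe) and for ST-HSC against MPP, and Tcf12 for MPP against CMP. The cause of the other changes was not tested.

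Differences between the numbered arrays of a population correlated weakly with those of another, at 0.08 (CMP and GMP), 0.15 (CMP and MEP), 0.06 (GMP and MEP) and 0.18 (ST-HSC and MPP). Same-numbered CMP, GMP and MEP arrays shared a slide, and the correlation within slides was 0.361 in the fit with slide as a block. With the replicate block, over numbered arrays without LT-HSC, MPP against CMP had 7 calls. There 13702 of 41174 probes were called, against 4998 in the main fit. The other counts stayed within 1.5 times: 12 by the F-test, 11 for HSC subsets against myeloid populations, 5 for GMP against MEP, 5 for CMP against GMP and 10 for CMP against MEP. These ST-HSC and MPP arrays were all of run 3 and the myeloid arrays all of run 1. In this setting population and run cannot be told apart for MPP against CMP or for HSC subsets against myeloid populations.

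Leaving out each array in turn gave 11 to 13 probes by the F-test, 10 to 11 for HSC subsets against myeloid populations, 5 to 6 for GMP against MEP, 3 to 6 for CMP against GMP, 7 to 10 for CMP against MEP, 0 to 1 for LT-HSC against MPP (1 without ST-HSC replicate 2 or 3), 2 to 6 for MPP against CMP and 4 to 6 steps in the order of levels. The lists gave 10 to 13 partners, 13 to 16 responding and 15 to 17 upstream genes for HSC subsets against myeloid populations, and 7 to 8, 8 to 12 and 6 to 12 for GMP against MEP.

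Over all probes, HSC subsets against myeloid populations had 17006 calls and 5970 with run as a block, MPP against CMP 4998 and 1535, and LT-HSC against MPP 2988 and 6139, or 7139 with 75th percentile scaling. That scaling moved the median of all probes to -0.43 for GMP against MEP and -0.49 for CMP against MEP, where the family still had 2 higher and 3 lower calls for GMP against MEP. Levels near background, as of Id4, are limited by signal.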
